A study of Mus musculus with 8 samples.

Results

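The bone morphogenetic protein (BMP) ligand genes Bmp2, Bmp4, Bmp5 and Bmp7, the inhibitor of differentiation genes Id1, Id2, Id3 and Id4 and the homeobox genes Msx1 and Msx2 were read in the posterior part of mouse embryos without Cdx2. They were chosen by name, as all non-control probes that the array files assign to these 10 genes. This gave 17 of the 41174 probes on the array, and 15 of them were bright enough to be kept, of 21907 kept in all. All 10 genes had at least 1 kept probe, among 15490 genes measured. RNA came from Cdx2 null mutant embryos and from wild type embryos of the strain C57Bl6J/CBA at 4/5 and at 7/8 somites, from tissue cut at the youngest somite and at the allantois base. Each of the 4 pools held 20 embryos, and the making of the null allele is not described in the sources used here. The null and the wild type pool of a stage shared 4 Agilent 2-colour arrays, 2 with the null pool on the dye Cy3 and 2 with it on Cy5. Every ratio below is the log2 of null over wild type, and every SD given with a stage is the technical spread of its 4 arrays.

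BMPs are secreted ligands that bind a complex of type I and type II receptor kinases. The receptors phosphorylate Smad1, Smad5 and Smad9, which join Smad4 and enter the nucleus, where the Id and Msx genes are among the best known genes they switch on. Id proteins bind basic helix-loop-helix factors and keep them off DNA, and Msx proteins are homeodomain repressors. In the gastrulating mouse embryo Bmp4 is needed for mesoderm, for the allantois and for germ cells, and Cdx2 encodes a homeodomain factor of the caudal embryo.

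Cdx2 itself was checked first. Its ratio lay between -1.61 and -1.10 on the 8 arrays, with -1.23 ± 0.12 at 4/5 somites and -1.55 ± 0.05 at 7/8 somites, but the sources used here do not say whether its probe lies in the deleted part. The share of probes well above background was 46.5% to 58.9% over pools and arrays. Within a stage, the ratios of arrays with the same dye order were set against those with the other order. They did not overlap for 67.7% of all genes at 4/5 somites and 69.5% at 7/8 somites. The same held for 6 and 10 of the 10 genes here. Where the 4 array ratios of a stage are listed below, the null pool was on Cy3, Cy5, Cy3 and Cy5 in that order. All 8 genes listed for the labelled tissue, the tail bud and primitive streak, were well above background in both pools on all 8 arrays.

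The test over both stages used 1 ratio per stage (n = 2 stages) in limma, with p-values adjusted over all 15490 genes. It called 11.1% of all genes at an adjusted p of at most 0.05, 6.58% higher and 4.56% lower in null pools. Of the called genes 59.1% were higher in null pools, and 75.3% were with median centring in place of loess. Among the 10 genes, 4 rose (Bmp5, Bmp7, Id3 and Id4), 1 fell (Bmp4) and 5 did not pass (Bmp2, Id1, Id2, Msx1 and Msx2). At an unadjusted p under 0.05, 6 of the 10 passed, against 22.4% of all genes. Of all genes 19.5% had the same sign on all 8 arrays, and 6 of the 10 did. Their median ratio was 0.15 over both stages, against -0.01 for all genes. No gene of the 10 reached 2-fold at either stage, which 0.387% of all genes did at 4/5 somites and 0.51% did at 7/8 somites. The test rests on 1 pool per genotype and stage. Its p-values rest on the spread between the stages, which is mostly one pooled over all genes.

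**Figure D1:**
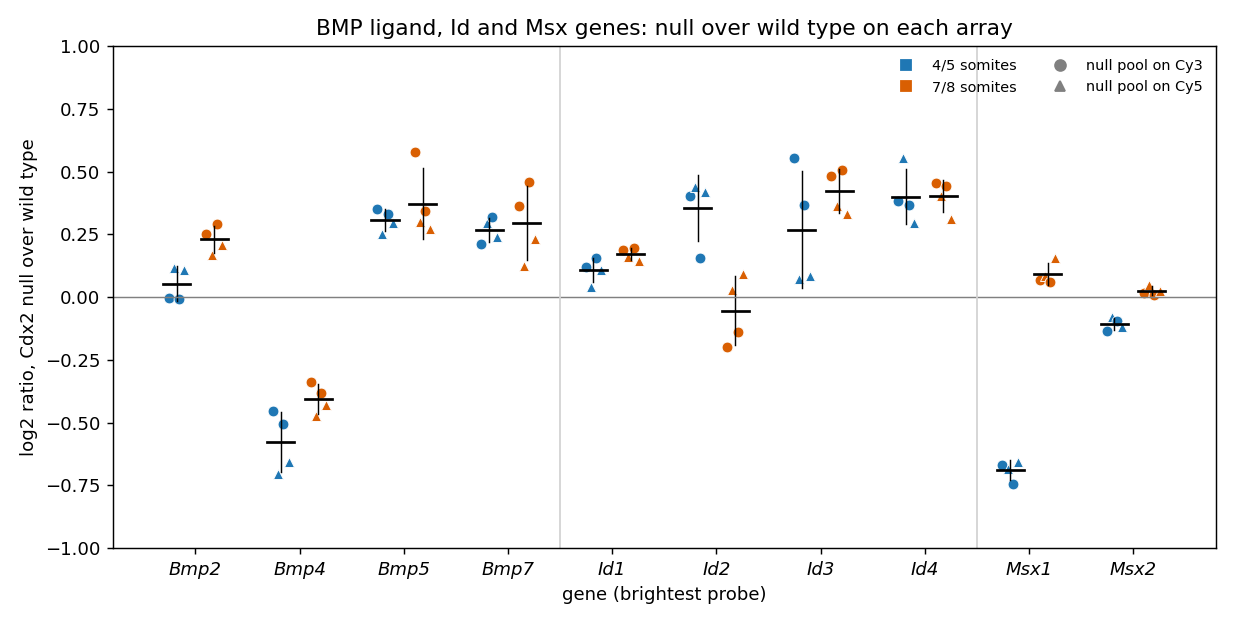
The log2 ratio of null over wild type is plotted for each gene's brightest probe on each of 4 arrays per stage, with bars for the mean and lines for ± 1 SD of 4 arrays. Circles have the null pool on Cy3 and triangles have it on Cy5. Bmp4 lies between -0.70 and -0.34 on all 8 arrays, Id4 between 0.29 and 0.55, and Msx1 sits near -0.69 at 4/5 somites and near 0.09 at 7/8 somites.

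Bmp4, the ligand of posterior and extraembryonic mesoderm, was the only one of the 4 ligands that fell. Its probe, printed whole because the largest mean ratio over both stages among the 10 genes rests on it, lies in coding sequence at chr14:47003802-47003861 on the minus strand (mm9).
Bmp4 probe: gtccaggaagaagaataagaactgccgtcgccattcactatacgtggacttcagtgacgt
Bmp4 ratios were -0.45, -0.70, -0.50 and -0.65 on the 4 arrays at 4/5 somites. On the arrays of 7/8 somites they were -0.34, -0.47, -0.38 and -0.43. All 8 arrays were below 0, and within each stage the arrays with the null pool on Cy5 read lower than those with it on Cy3. The probe is printed as 10 spots per array, and all 40 spots of each stage were below 0. The mean ratio was -0.58 ± 0.12 at 4/5 somites and -0.41 ± 0.06 at 7/8 somites, a null level of 0.67 and 0.755 times the wild type level. Over both stages Bmp4 fell by 0.49 (SE 0.09, adjusted p = 0.000284), and 3.04% of all genes had a larger ratio in either direction. The log2 level of Bmp4 was 9.26 ± 0.06 in null pools and 9.83 ± 0.09 in wild type pools at 4/5 somites. At 7/8 somites it was 9.57 ± 0.08 in null pools and 9.98 ± 0.04 in wild type pools. The 4 pools did not overlap in their arrays, in the ascending order null at 4/5, null at 7/8, wild type at 4/5 and wild type at 7/8 somites, so the level was higher at the later stage in both genotypes (by 0.32 in null and 0.14 in wild type pools). In pooled tissue, fewer cells of a type and less RNA per cell cannot be told apart. With median centring the adjusted p of Bmp4 was 0.102 and its ratio at 7/8 somites -0.26. Over the 24 alternatives its mean over both stages ranged from -0.57 to -0.42, its ratio at 4/5 somites from -0.68 to -0.48 and that at 7/8 somites from -0.46 to -0.26.

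Bmp5 and Bmp7, which belong to the same ligand subfamily, rose. The Bmp5 probe lies at chr9:75746444-75746503 on the plus strand (mm9). Bmp5 ratios were 0.35, 0.25, 0.33 and 0.29 at 4/5 somites. The later stage gave 0.58, 0.30, 0.34 and 0.27. All 8 arrays were above 0 and the stages overlapped, and the array at 0.58, with the null pool on Cy3, stood above the other 3. Over both stages Bmp5 rose by 0.34 (SE 0.09, adjusted p = 0.00839). Its log2 level was 7.25 ± 0.05 in null and 6.95 ± 0.03 in wild type pools at 4/5 somites, and 7.24 ± 0.04 in null and 6.86 ± 0.12 in wild type pools at 7/8 somites. Its null and wild type arrays did not overlap at either stage. The other 2 Bmp5 probes were not well above background in either pool on any array and give no ratio. The Bmp5 ratio was 0.77 with the scanner's processed signals and 0.23 without background correction, where the adjusted p was 0.119. The call was also lost with uneven backgrounds kept, with median centring and on the arrays with the null pool on Cy5.

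The brighter Bmp7 probe lies at chr2:172695203-172695262 on the minus strand (mm9). Bmp7 ratios were 0.21, 0.30, 0.32 and 0.24 at 4/5 somites. The arrays of 7/8 somites gave 0.36, 0.12, 0.46 and 0.23. All 8 arrays were above 0, and the Cy3 and Cy5 arrays of 7/8 somites lay apart (means 0.41 with the null pool on Cy3 and 0.18 with it on Cy5). Over both stages Bmp7 rose by 0.28 (SE 0.08, adjusted p = 0.0315), a call that 18 of 24 alternatives did not give (adjusted p up to 0.14). The other Bmp7 probe, which lies 19 bases away and is printed as 10 spots per array, read 0.15 ± 0.09 at 4/5 and 0.25 ± 0.06 at 7/8 somites. It did not pass when all kept probes were fitted singly (mean 0.20, adjusted p = 0.183). That fit called 8.34% of all kept probes and 5 of the 15 kept probes of the 10 genes. Of the spots of this other Bmp7 probe, 33 of 36 at 4/5 and 40 of 40 at 7/8 somites were above 0. Spots repeat the same pools on the same arrays and are no replicates. The log2 level of Bmp7 was 10.96 ± 0.15 in null and 10.69 ± 0.16 in wild type pools at 4/5 somites, where the arrays of the pools overlapped. The level at 7/8 somites was 11.27 ± 0.14 in null and 10.98 ± 0.08 in wild type pools, with no overlap.

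Bmp2, which together with Bmp4 forms the other ligand subfamily, averaged 0.14 over both stages and did not pass (SE 0.09, adjusted p = 0.371). Its probe lies at chr2:133386981-133387040 on the plus strand (mm9). Its ratios were -0.0031, 0.12, -0.0068 and 0.11 at 4/5 somites. Those at 7/8 somites were 0.25, 0.17, 0.29 and 0.21. The stages did not overlap, and the 7/8 somite arrays were the higher ones. With the scanner's processed signals the mean was 0.30 and the ratio at 7/8 somites 0.49, still without passing. Of its 10 spots per array, 27 of the 39 measured at 4/5 somites and 38 of 38 at 7/8 somites were above 0. At 4/5 somites 4 and 5 spots were above 0 on the arrays with the null pool on Cy3, and 9 and 9 with it on Cy5. The log2 level of Bmp2 was 7.13 ± 0.03 in null and 6.90 ± 0.06 in wild type pools at 7/8 somites, without overlap. At 4/5 somites it was 6.95 ± 0.06 in null and 6.90 ± 0.02 in wild type pools, with overlap.

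**Figure D2:**
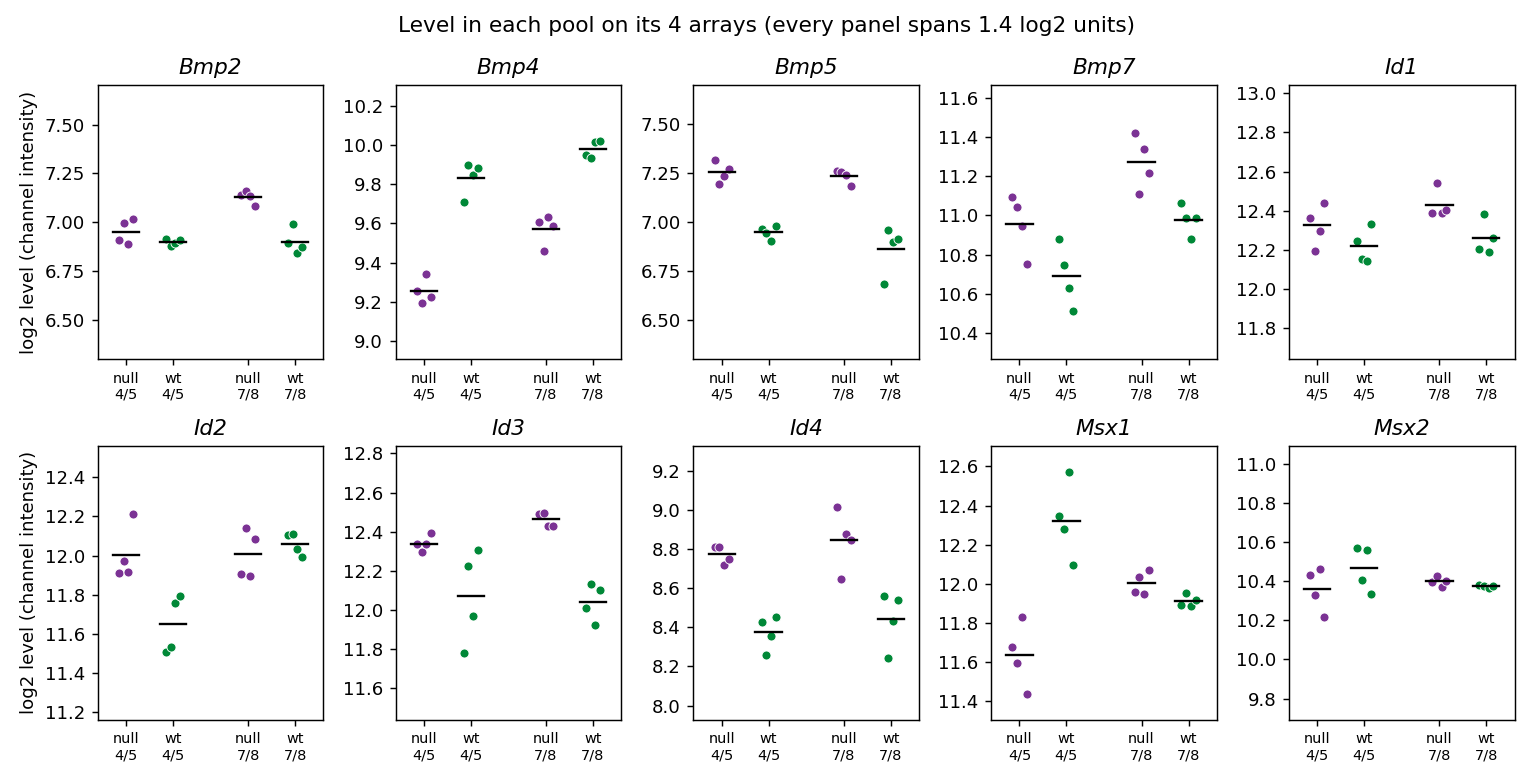
The log2 level (channel intensity after normalization between arrays) of each gene is plotted on the 4 arrays of each pool, null left of wild type at 4/5 and then at 7/8 somites, with a bar at the mean. Every panel spans the same range. Bmp4, Bmp5 and Id4 have no overlap between null and wild type arrays at either stage, and Msx1 is lower in null (11.64) than in wild type pools (12.32) at 4/5 somites.

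Among the Id genes, Id3 and Id4 rose and Id1 and Id2 did not pass the test. The brighter Id4 probe lies at chr13:48358668-48358727 on the plus strand (mm9). Id4 ratios were 0.38, 0.55, 0.37 and 0.29 at 4/5 somites. The arrays at 7/8 somites read 0.45, 0.40, 0.44 and 0.31. All 8 arrays were above 0 and the stages had nearly the same mean (0.40 ± 0.11 and 0.40 ± 0.07). Over both stages Id4 rose by 0.40 or 1.32-fold (SE 0.08, adjusted p = 0.00198), the largest rise among the 10 genes. The other Id4 probe, 452 bases away, read 0.32 ± 0.07 at 4/5 and 0.34 ± 0.11 at 7/8 somites. It passed in the limma fit of single probes (adjusted p = 0.0215), a call that 9 of 24 alternatives did not give. The log2 level of Id4 was 8.77 ± 0.05 in null and 8.37 ± 0.09 in wild type pools at 4/5 somites, and 8.85 ± 0.15 in null and 8.44 ± 0.15 in wild type pools at 7/8 somites. Null and wild type arrays did not overlap at either stage. With median centring Id4 stood at 0.46 with an adjusted p of 0.0551, the one alternative of 24 in which its brighter probe did not pass.

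Id3 ratios were 0.55, 0.07, 0.37 and 0.08 at 4/5 somites. On the later arrays, at 7/8 somites, they were 0.48, 0.36, 0.51 and 0.33. All 8 arrays were above 0, and at both stages the arrays with the null pool on Cy3 read higher than those with it on Cy5. At 4/5 somites the Cy3 arrays averaged 0.46 and the Cy5 arrays 0.08. Over both stages Id3 rose by 0.34 (SE 0.09, adjusted p = 0.00827). On the Cy5 arrays alone its ratio was 0.21 (adjusted p = 0.192), and 5 of 24 alternatives did not call it. Its log2 level was 12.34 ± 0.04 in null and 12.07 ± 0.24 in wild type pools at 4/5 somites, with overlap, and 12.46 ± 0.04 in null and 12.04 ± 0.09 in wild type pools at 7/8 somites, without overlap. The Id3 probe covers 60 bases of RNA over a span of 175 bases at chr4:135700075-135700249 on the plus strand (mm9).

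Id1, the Id gene most often used as a readout of BMP signalling, was above 0 on all 8 arrays but averaged only 0.14 and did not pass (SE 0.09, adjusted p = 0.371). Its brighter probe lies at chr2:152563036-152563095 on the plus strand (mm9), and its ratios ran between 0.04 and 0.16 at 4/5 somites and between 0.14 and 0.20 at 7/8 somites. The other Id1 probe shares 50 bases with the brighter one and is no separate reading, and it gave 0.21 ± 0.08 at 4/5 and 0.14 ± 0.06 at 7/8 somites. The log2 level of Id1 was 12.32 ± 0.10 in null and 12.22 ± 0.09 in wild type pools at 4/5 somites, and 12.43 ± 0.08 in null and 12.26 ± 0.09 in wild type pools at 7/8 somites.

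Id2 differed between the stages. Both of its probes are shown because they lie 1219 bases apart and both read the same order of stages. The coding probe lies at chr12:25780183-25780530 on the minus strand (mm9), where its 60 bases span 348 bases of genome, and of the brighter probe at chr12:25778904-25778963 the first 30 of 60 bases are printed.
Id2 coding probe: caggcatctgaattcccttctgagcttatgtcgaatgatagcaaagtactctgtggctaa
Id2 brighter probe: tgagtgaaccttgtggactctttaattaga
Ratios of the brighter Id2 probe were 0.40, 0.44, 0.16 and 0.42 at 4/5 somites. At 7/8 somites they were -0.20, 0.03, -0.14 and 0.09. The stages did not overlap, and at 7/8 somites the arrays with the null pool on Cy3 were below 0 and those with it on Cy5 were above 0. The coding probe read 0.36, 0.16, 0.18 and 0.04 at 4/5 somites. It read -0.38, -0.08, -0.28 and -0.13 at 7/8 somites. Its stages did not overlap either, with opposite signs on all arrays of the stages. Averaged over both stages, the brighter probe gave 0.15 (SE 0.09, adjusted p = 0.391) and the coding probe -0.02. The difference between the stages was -0.41 on the brighter and -0.40 on the coding probe, and it was not tested, since each stage has 1 pool per genotype. The log2 level of the brighter probe was 12.00 ± 0.14 in null and 11.65 ± 0.15 in wild type pools at 4/5 somites, without overlap. The level at 7/8 somites was 12.01 ± 0.12 in null and 12.06 ± 0.06 in wild type pools, with overlap. On the brighter probe the wild type arrays were thus 0.41 higher at 7/8 than at 4/5 somites without overlap, and the null pools differed by 0.0035. On the coding probe the wild type pools were 0.69 higher and the null pools 0.29 higher at 7/8 somites, both without overlap. Of all genes, 19.4% had no such overlap in wild type pools and 21% in null pools.

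Msx1 was lower in the null pool at 4/5 somites and not at 7/8 somites. Its probes are shown because they lie 5 bases apart and read different sizes. The brighter one is at chr5:38212305-38212364 and the dimmer one at chr5:38212242-38212299, both on the minus strand (mm9), and the file's span of the dimmer one is 58 bases for a probe of 60. The first 30 bases of each are printed.
Msx1 brighter probe: acacttcctcctggttgtcgcttcctaaac
Msx1 dimmer probe: ttggtcggaagatgttcaggtttttcgagt
Msx1 ratios on the brighter probe were -0.67, -0.69, -0.74 and -0.66 at 4/5 somites. At 7/8 somites they were 0.07, 0.08, 0.06 and 0.15. The arrays of the stages lay apart with opposite signs, as did those of 3.84% of all genes. The mean was -0.69 ± 0.04 at 4/5 somites, a null level of 0.621 times the wild type level, and 0.09 ± 0.04 at 7/8 somites, 1.06 times. Stage means at least 0.5 apart without overlap were found for 1.8% of all genes, and among the 10 genes for Msx1 alone (0.78 apart, not tested).

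Over both stages Msx1 did not pass (mean -0.30, SE 0.12, adjusted p = 0.11). It passed in 4 of 24 alternatives, without replicate 1 of 4/5 somites, on slide 2 alone, with the slide as a block and where probes had to be above background in both pools on all arrays. The log2 level was 11.64 ± 0.16 in null and 12.32 ± 0.20 in wild type pools at 4/5 somites, without overlap. At 7/8 somites it was 12.00 ± 0.06 in null and 11.91 ± 0.03 in wild type pools, with overlap. The null pools were 0.37 higher and the wild type pools 0.41 lower at 7/8 than at 4/5 somites, in both genotypes without overlap of arrays (21% of all genes had no such overlap in null pools and 19.4% in wild type pools). The dimmer probe read -0.15 ± 0.09 at 4/5 and 0.01 ± 0.12 at 7/8 somites. Its log2 level was 6.62 in null and 6.77 in wild type pools at 4/5 somites, and it was well above background in the null pool on 2 of 4 arrays of that stage, so its ratio has little signal behind it. Of its spots, 33 of 38 were below 0 at 4/5 somites and 17 of 35 at 7/8 somites. Averaging both probes gave -0.42 for Msx1 at 4/5 somites.

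Msx2 showed the same order of stages at a small size. Its probe lies at chr13:53563333-53563392 on the minus strand (mm9). Its ratios were -0.13, -0.08, -0.10 and -0.12 at 4/5 somites. The ratios at 7/8 somites were 0.02, 0.05, 0.01 and 0.03. The signs were opposite on all arrays of the stages, and the means were -0.11 ± 0.03 at 4/5 and 0.03 ± 0.02 at 7/8 somites, 0.13 apart. The probe is printed as 10 spots per array. Of its spots, 31 of 37 were below 0 at 4/5 somites and 13 of 40 at 7/8 somites. With median centring the ratio at 7/8 somites was 0.17 for Msx2, and likewise 0.21 for Msx1 and 0.29 for Id1. Over both stages Msx2 did not pass (mean -0.04, SE 0.09, adjusted p = 0.869, and 0.03 with median centring). Its log2 level was 10.36 ± 0.11 in null and 10.47 ± 0.11 in wild type pools at 4/5 somites, and 10.40 ± 0.02 in null and 10.37 ± 0.01 in wild type pools at 7/8 somites, with overlap at both stages.

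**Figure D3:**
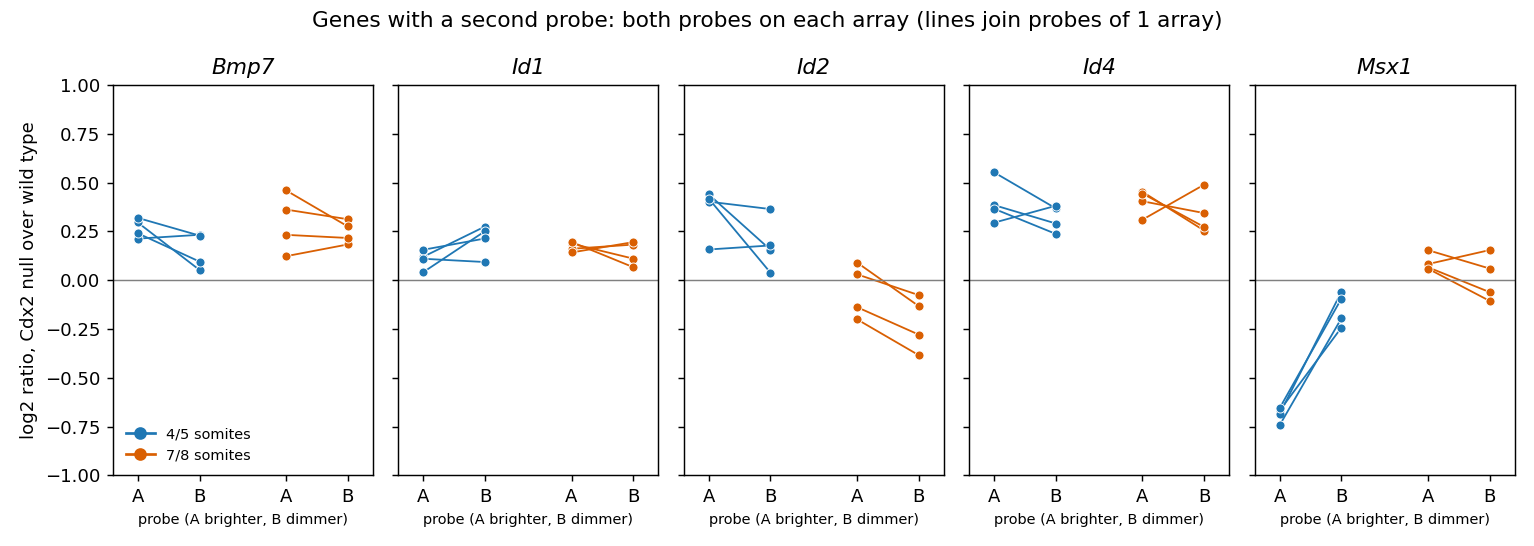
The log2 ratio of null over wild type is plotted for both kept probes (A brighter, B dimmer) of the 5 genes that have 2, with a line for each array. Id2 moves the same way between stages on both probes, whereas the dimmer Msx1 probe reads -0.15 where the brighter one reads -0.69 at 4/5 somites.

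The stages of 4 of the 10 genes did not overlap in their ratios (Bmp2, Id2, Msx1 and Msx2), against 18.6% of all genes. At 4/5 somites 6 of the 10 genes were higher and 3 lower in the null pool on every array, against 22.4% and 21.8% of all genes. On the arrays of 7/8 somites 8 were higher and 1, Bmp4, was lower, against 21.9% and 21% of all genes. The null and wild type levels of Bmp4, Bmp5 and Id4 did not overlap at either stage, as was so for 8.43% of all genes. The median ratio of the 10 was 0.19 at 4/5 and 0.20 at 7/8 somites. No gene of the 10 differed by 2-fold in level between the stages without overlap in either genotype, against 0.291% of all genes in null and 0.252% in wild type pools.

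**Figure D4:**
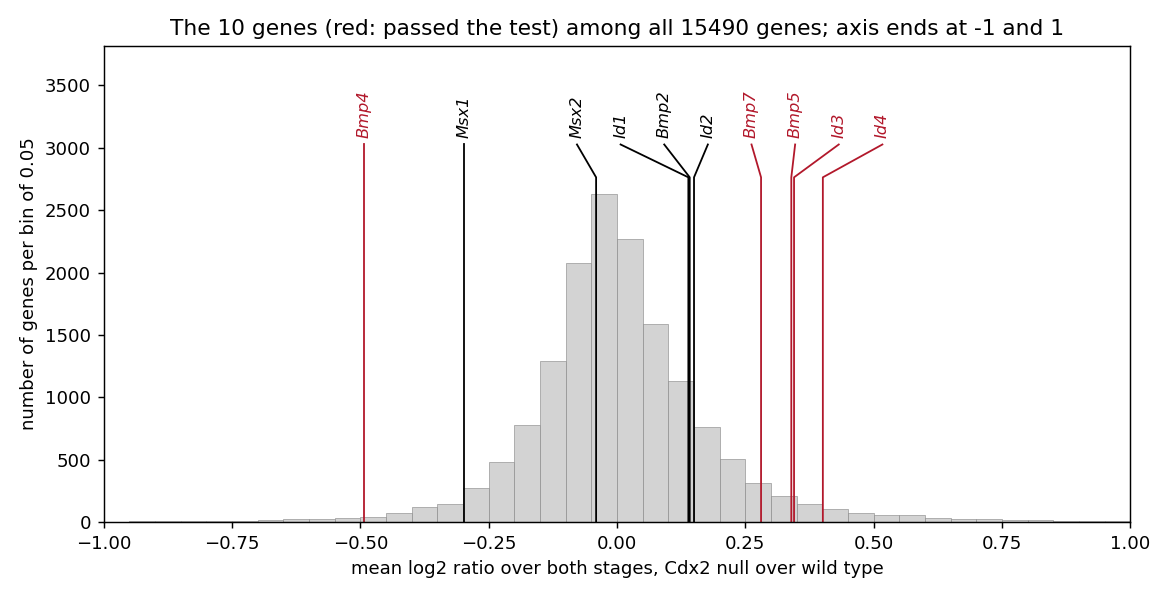
The mean log2 ratio of null over wild type over both stages is plotted as a histogram of all 15490 genes in bins of 0.05, with a line for each of the 10 genes. Bmp4 at -0.49 lies in the left tail and Bmp5, Bmp7, Id3 and Id4 between 0.28 and 0.40 on the right, whereas Msx2 at -0.04 (0.03 with median centring) lies near the centre.

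The labels name 2 sets of 4 arrays, bio1 and tech1, each with both stages. These sets, called slide 1 and slide 2 here, were the batch that could be separated. Bmp4 was -0.49 on slide 1 and -0.49 on slide 2. On slide 1 Id4 was 0.45, Id3 0.37, Bmp5 0.37 and Bmp7 0.25. On slide 2 Id4 was 0.35, Id3 0.32, Bmp5 0.31 and Bmp7 0.31. These 5 genes were called on each slide except Bmp7 on slide 1 (adjusted p = 0.105). Msx1 was -0.30 on both slides.

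By the root mean square difference of the 8 array ratios, the genes nearest to Bmp4 were OTTMUSG00000016748 (0.0513), the protease inhibitor gene Spint1 (0.0599), Samd1 (0.0621), AW551984 (0.0675) and the myosin light chain gene Myl1 (0.0776). All 5 were below 0 on all 8 arrays, with mean ratios between -0.52 and -0.46. Both follow from the choice, since the genes were picked for array ratios near those of Bmp4.

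Promoter windows from 250 bases before to 50 bases after the annotated start were available for 7 of the 10 genes (RefSeq, GRCm38.p6), namely Bmp4, Bmp5, Id2, Id3, Id4, Msx1 and Msx2. They were searched on both strands for GGCGCC, a GC-rich word bound by Smad1 complexes, and for TTTATG, a word bound by Cdx proteins, and the matches do not overlap. GGCGCC stood in the windows of Id2 and Id4 (11.9% of all 32851 windows hold it). TTTATG stood, as CATAAA, in the windows of Bmp5 and Id2 (11.9% of all windows). The 3 windows with a match are printed with the match in capitals, at chr9:75775115-75775414 on the plus strand for Bmp5, chr12:25096043-25096342 on the minus strand for Id2 and chr13:48260866-48261165 on the plus strand for Id4.
Bmp5 promoter: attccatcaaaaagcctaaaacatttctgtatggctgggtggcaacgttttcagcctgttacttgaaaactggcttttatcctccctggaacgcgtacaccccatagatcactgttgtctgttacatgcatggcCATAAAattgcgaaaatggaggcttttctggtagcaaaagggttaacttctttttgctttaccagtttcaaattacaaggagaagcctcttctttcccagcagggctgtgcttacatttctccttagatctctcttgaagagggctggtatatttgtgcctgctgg
Id2 promoter: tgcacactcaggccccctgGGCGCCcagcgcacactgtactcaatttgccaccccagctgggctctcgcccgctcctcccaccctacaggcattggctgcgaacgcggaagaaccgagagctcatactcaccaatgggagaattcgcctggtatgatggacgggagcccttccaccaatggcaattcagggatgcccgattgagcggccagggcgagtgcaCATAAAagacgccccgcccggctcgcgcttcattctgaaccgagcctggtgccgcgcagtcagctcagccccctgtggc
Id4 promoter: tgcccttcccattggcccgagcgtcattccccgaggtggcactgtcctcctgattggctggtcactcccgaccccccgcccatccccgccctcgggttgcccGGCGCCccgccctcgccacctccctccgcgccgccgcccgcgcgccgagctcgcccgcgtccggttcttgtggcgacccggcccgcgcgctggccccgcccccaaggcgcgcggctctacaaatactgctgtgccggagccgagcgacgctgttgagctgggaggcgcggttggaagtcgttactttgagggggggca
CATAAA began 116 bases before the start of Bmp5 and 29 bases before that of Id2, and GGCGCC began 231 bases before the start of Id2 and 148 before that of Id4. These are matches of letters and not measured binding sites.

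Of the other BMP pathway genes, 2 rose and 1 fell among 32 measured of 44 listed, against 6.58% and 4.56% of all genes, with a median ratio of 0.04. A count of 3 in 32 lies near the 11.1% called among all genes. The extracellular regulators held 2 of these calls. Nbl1, a secreted BMP antagonist also called DAN, rose by 0.59 (SE 0.09, adjusted p = 2.91e-05) and passed under all 24 alternatives. Its stage means were 0.65 ± 0.11 at 4/5 and 0.52 ± 0.08 at 7/8 somites. Chrdl1, a chordin-like secreted BMP antagonist, fell by 0.27 (SE 0.09, adjusted p = 0.0465), a call that 21 of 24 alternatives did not give. Bmper, a secreted BMP-binding protein, averaged -0.03 ± 0.08 at 4/5 and -0.56 ± 0.14 at 7/8 somites and did not pass over both (adjusted p = 0.0611). The other 8 of the 11 measured regulators did not pass. Of these, the antagonist gene Nog averaged -0.24 and was below 0 on all 8 arrays (adjusted p = 0.0793), and the antagonist gene Chrd averaged -0.01.

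None of the 2 measured other ligands, 5 receptors and 5 Smad genes passed the limma test at an adjusted p of at most 0.05. The ligand gene Gdf6 stood at 0.21 on average and Gdf5 at -0.06. Among the receptors, the type II receptor gene Acvr2b averaged -0.21, the type I receptor gene Acvr1 0.15 and the type II receptor gene Acvr2a 0.11. Among the Smad genes, the common partner Smad4 averaged 0.18, the receptor-activated Smad1 -0.16 and the inhibitory Smad6 0.15. Gdf6, Acvr2b and Smad4 had an unadjusted p under 0.05, at 0.0202, 0.0358 and 0.0424 in limma. Of 9 other response genes, the zinc finger gene Gata3 rose by 0.30 (SE 0.08, adjusted p = 0.0186), a call that 11 of 24 alternatives did not give. The repressor gene Hey1 averaged -0.25 (adjusted p = 0.0658) and the zinc finger gene Gata2 -0.19 (adjusted p = 0.178).

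**Figure D5:**
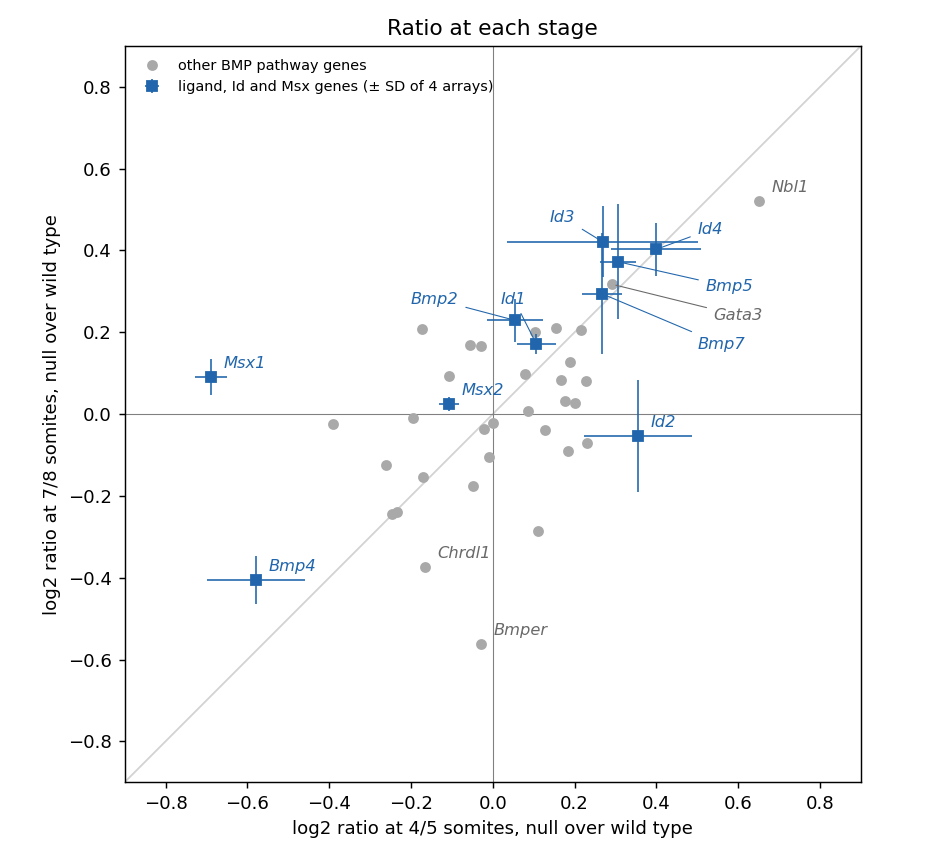
The log2 ratio of null over wild type at 7/8 somites is plotted against that at 4/5 somites for the 10 genes (squares, ± SD of 4 arrays) and for the 32 other measured pathway genes (grey circles), with the line of equal ratios. Bmp4 and Nbl1 lie near that line at opposite ends, whereas Msx1, Id2 and Bmper lie away from it.

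Marker genes were listed for tissues that could be present in unequal amounts in the pools. For the counts below, 6.58% of all genes were called higher and 4.56% lower in null pools. Of the surface ectoderm list 6 of 9 measured genes rose and none fell, and its summed level was 77570 to 85704 in null against 61297 to 71081 in wild type arrays at 4/5 somites, and 89379 to 103341 in null against 61123 to 68229 in wild type arrays at 7/8 somites (linear intensity). Of the allantois list 3 of 5 measured genes rose (Snai2, Ahnak and Postn), and Tbx4 and Vcam1 were not measured. Its sums were 8189 to 9339 in null against 5567 to 6551 in wild type arrays at 4/5 somites. At 7/8 somites they were 10749 to 11497 in null against 7651 to 8355 in wild type arrays. Of the visceral endoderm list 4 of 7 rose, with sums of 44717 to 48242 in null against 28590 to 31066 in wild type arrays at 4/5 somites, and 27009 to 28310 in null against 19000 to 19616 in wild type arrays at 7/8 somites. The sums of these 3 lists were higher in null pools at both stages, but not every member was. Afp (visceral endoderm) was at -0.82 ± 0.10 and Pitx1 (allantois) at -0.31 ± 0.08 at 7/8 somites. Tfap2a (surface ectoderm) averaged 0.0023 over both stages, above 0 on 4 arrays and below 0 on 4. Of the calls counted, that of Apoa1 was lost in 14 of 24 alternatives, Postn in 11 and Krt8 in 9.

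Of the endothelium list 4 of 5 fell, against 4.56% of all genes. Its sums were 2920 to 3200 in null against 3689 to 3922 in wild type arrays at 4/5 somites, and 2813 to 3365 in null against 5125 to 6457 in wild type arrays at 7/8 somites. The fall of Tal1 (0.01 ± 0.24 at 4/5 and -0.87 ± 0.06 at 7/8 somites) was lost in 15 of 24 alternatives and that of Egfl7 in 7. Of the erythroid list 1 of 3 fell, with sums of 400 to 421 in null against 520 to 570 in wild type arrays at 4/5 somites and 3973 to 4626 in null against 4794 to 5028 in wild type arrays at 7/8 somites. Of the lateral plate and ventral mesoderm list 2 of 7 rose, Wnt2 (mean ratio 1.12) and Gata6 (0.54). Its sums were 3049 to 3191 in null against 1979 to 2266 in wild type arrays at 4/5 somites. At 7/8 somites they were 2551 to 2908 in null against 2366 to 2441 in wild type arrays. The other 5 genes did not pass, and the median ratio of the list was -0.03. Hand2 was below 0 on all 8 arrays (mean -0.11). Isl1 (-0.44 ± 0.04) and Prrx1 (-0.32 ± 0.12) were lower in the null pool at 7/8 somites. Of the neural plate list none of 3 passed the limma test, with 1 at an unadjusted p under 0.05 (Sox2, mean ratio 0.18). Its sums were 780 to 902 in null against 708 to 761 in wild type arrays at 4/5 somites and 907 to 988 in null against 880 to 965 in wild type arrays at 7/8 somites. Of the tail bud and primitive streak list 3 of 8 fell (Cdx4, Msgn1 and T), with sums of 21799 to 23268 in null against 27836 to 31018 in wild type arrays at 4/5 somites and 26243 to 27949 in null against 23617 to 27418 in wild type arrays at 7/8 somites. The call of T was lost in 17 of 24 alternatives, and its ratio was -0.61 ± 0.07 at 4/5 and -0.07 ± 0.09 at 7/8 somites. At 7/8 somites Cdx1 (0.40 ± 0.03) and Wnt3a (0.34 ± 0.05) of the same list were higher in the null pool. Cdx4 (-0.55 ± 0.07) and Msgn1 (-0.37 ± 0.12) were lower in the null pool at that stage. The tail bud sums were lower in null pools at 4/5 somites and overlapped at 7/8 somites. The part of these tissues in the ratios of the 10 genes was not tested.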

How the data were processed

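Messenger RNA was measured on Agilent 2-colour arrays, 4 per stage and 8 in all, each with a null and a wild type pool of 20 embryos. The deposited scanner files give spot and background intensity, not normalized, per the file headers, together with the scanner's processed intensity signals, its log10 ratio and its flags. The scanner software is Agilent Feature Extraction 9.5.3 per the submitters' processing notes, whereas the file headers give 10.5.1.1. The deposited value table holds log10 ratios that equalled the scanner's at all 45018 spots of each array (tolerance 1e-05, turned to null over wild type).

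Spots were corrected with normexp (offset 50), with the array's median background where the scanner marked a background as uneven, and normalized by loess with control spots at weight 0 in limma 3.58.1 (R 4.3.3). Outlier spots (1309, or 0.377% of those that are no controls) were dropped, and none of the rest was saturated. Spots of a probe were averaged. A probe was kept when it was well above background in 1 genotype on at least 3 of 4 arrays of a stage, and the brightest kept probe stood for a gene. Names came from the files and, for 25097 probes, from accessions in RefSeq (GRCm38.p6). Levels are channel values after loess and Aquantile. Precision is limited by the number of arrays and pools.

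The test was limma's lmFit and eBayes on 1 mean ratio per stage, Benjamini-Hochberg adjusted over 15490 genes, two-sided, with 1 residual degree of freedom per gene and a prior of 22.7, so the spread behind a p-value is mostly one pooled over genes. The fit was tested on simulated data. Within a stage no test was made. The 10 genes and the gene lists were chosen with earlier results of these data known. Named genes are the 10 on all probes, Cdx2, the 3 genes with the largest mean ratio of each pathway list and the 5 nearest to the gene with the largest ratio. Nog, Chrd and the marker genes were named after their values were seen. The 24 alternatives changed the background correction, normalization, probe filter, probe choice, outlier spots, slide, dye order or left out 1 array.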

Additional observations from a re-analysis of the deposited data

Results flagged for a closer look

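On the brighter Id2 probe, 1 of the 4 arrays of 4/5 somites stood apart from the others. It read 0.16, against 0.40 to 0.44 on the other 3, a gap of 0.867 of the whole range. Such a gap is expected by chance in about 1 in 20 groups of 4.

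On 3 probes every array of 4/5 somites had the opposite sign to every array of 7/8 somites. The ratio at 7/8 somites minus that at 4/5 somites was 0.78 on the brighter Msx1 probe, -0.40 on the coding Id2 probe and 0.13 on the Msx2 probe. These differences were not tested, since each stage has 1 pool per genotype. On the brightest probe of each gene, 2 of the 10 genes (Msx1 and Msx2) had such opposite signs, against 3.84% of all genes.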

How the results depend on the processing

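With 24 alternatives, the number of genes called was 1726 as reported, 540 without background correction, 976 with uneven backgrounds kept, 461 with median centring, 769 without the filter on dim probes, 1117 on arrays with the null pool on Cy3, 9805 with the slide as a block on dye swap pairs (a spread that is only technical), and 984 to 1591 with 1 array left out. Leaving out replicate 2 of 4/5 somites gave 1028, replicate 2 of 7/8 somites 984 and replicate 4 of 7/8 somites 1040. Of the 10 genes, 4 rose as reported, 0 with median centring, 1 without background correction, 1 on arrays with the null pool on Cy5, 2 with uneven backgrounds kept, 2 with the scanner's processed signals, 2 without the filter, 7 with the slide as a block and 3 to 4 with 1 array left out. As reported 1 fell, 0 with median centring, and 2 (Bmp4 and Msx1) with the stricter filter, on slide 2 alone or with the slide as a block, and 1 to 2 with 1 array left out. Bmp4 and Id4 kept their call in 23 of 24 alternatives, Bmp5 in 20, Id3 in 19 and Bmp7 in 6. Directions turned for Msx2 with median centring (0.034), for the coding Id2 probe with median centring (0.058) and on slide 1 alone (0.015), and for the dimmer Msx1 probe on arrays with the null pool on Cy5 (0.015). Among ratios of a single stage, the brighter Id2 probe at 7/8 somites turned to 0.066 with median centring and 0.06 on arrays with the null pool on Cy5, and Bmp2 at 4/5 somites to -0.0049 on arrays with the null pool on Cy3. With 1 array left out, the coding Id2 probe ranged from -0.047 to 0.011. The causes were not tested. No paired analysis was possible because the labels' numbers mark repeat arrays of the same pools and pair no pools between the stages, whereas null and wild type pools are already paired within each array's ratio. Signal over background limits the dimmer Msx1 probe, above background in the null pool on 2 of 4 arrays of 4/5 somites, and the 2 Bmp5 probes that give no ratio. The Bmp5 and Bmp2 probes used were also dim, with a mean log2 intensity of 7.08 and 6.97, against 6.76 for the dimmer Msx1 probe. Without background correction their mean ratios were 0.23 for Bmp5 and 0.09 for Bmp2, against 0.34 and 0.14 as reported.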
